A study of Rattus norvegicus with 6 samples.

Results

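miR-143 and miR-145 were followed in rat tendon-derived stem cells (rTDSCs) that had been kept under cyclic stretch or without it. They are 2 of the 677 miRNAs on the array, and were taken by name (rno-miR-143 and rno-miR-145, without the starred arms) because they are known as a cotranscribed pair of the contractile programme. All 6 samples were cells of passage 3 from the patellar tendon of male Sprague Dawley rats aged 8 weeks, so cultured cells and not tendon tissue. The loading group (3 samples) had uniaxial stretch at 10% elongation and 0.5 Hz for 8 h per day over 7 days on flexible plates coated with collagen type I, and the non-loading group (3 samples) was untreated for 7 days. Total RNA of each sample was labelled with Cy3 and hybridised to 1 Agilent rat miRNA array, on 1 slide. No source used here says that the samples of a group were separate cultures or animals, so the p-values measure the spread between these samples, which may be technical. In bulk RNA of this kind, fewer cells of a type and less RNA per cell cannot be told apart.

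A miRNA guides a silencing complex to transcripts that pair with its seed, the bases near its 5′ end. Both miRNAs are cut from 1 long transcript, and its transcription in muscle and fibroblast-like cells is known to depend on serum response factor (SRF) with its myocardin-family partners, which sense the state of the actin cytoskeleton. In smooth muscle the pair is known for favouring the contractile over the proliferative state, with miR-145 acting on Klf5, a transcription factor of the proliferative state. The array holds no mRNA, so neither SRF nor its target genes were measured here.

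In the RefSeq gene table of the GRCr8 assembly, Mir143 and Mir145 lie on the same strand inside the long noncoding gene Carmn, with Mir143 first and 1278 bases between the hairpins. The mature sequences of both arms are shown because the arms of this 1 transcript differed so plainly in detection. They come from RefSeq (GRCr8), are written 5′ to 3′, and have the seed (bases 2 to 8) in capitals. The array's files hold no probe sequence. The unstarred names were taken as the arms called miR-143-3p and miR-145-5p, as these miRNAs are named today.
miR-143-3p: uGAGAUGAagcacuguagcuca
miR-145-5p: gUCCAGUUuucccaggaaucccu
miR-143-5p (the array's miR-143*): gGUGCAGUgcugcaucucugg
miR-145-3p (the array's miR-145*): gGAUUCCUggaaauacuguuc
miR-143-3p has 22 bases with a GC content of 45.5% and miR-145-5p has 23 bases with 52.2%. The seeds GAGAUGA and UCCAGUU differ, and each is shared with 0 of the other entries among the 724 mature rat miRNAs in the table, so neither miRNA has a seed relative there.

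rTDSCs of both groups carried a clear miR-143 signal, and its level did not differ between loading and non-loading cells beyond the spread of the arrays. miR-145 was close to background in both groups. The scanner software detected miR-143 on 6 of 6 arrays and miR-145 on 3 of 6, which were 1 non-loading and 2 loading arrays. It detected miR-143* and miR-145* on 0 of 6. Each miRNA had 2 probes with 10 spots each per array. The 2 probes of miR-143 itself differed in brightness (below), so detection by unlike probes does not rank the amounts of RNA. Of the 120 spots of miR-143 over all arrays 120 were well above background, against 8 of 120 for miR-145, 3 of 120 for miR-145* and 0 of 120 for miR-143*. The signal of the starred arms was near or below 0 after background subtraction, at -0.854% to 0.195% of the array's 75th percentile for miR-143* and -2.50% to -0.663% for miR-145*, so neither arm had a measured level in either group.

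**Figure D1:**
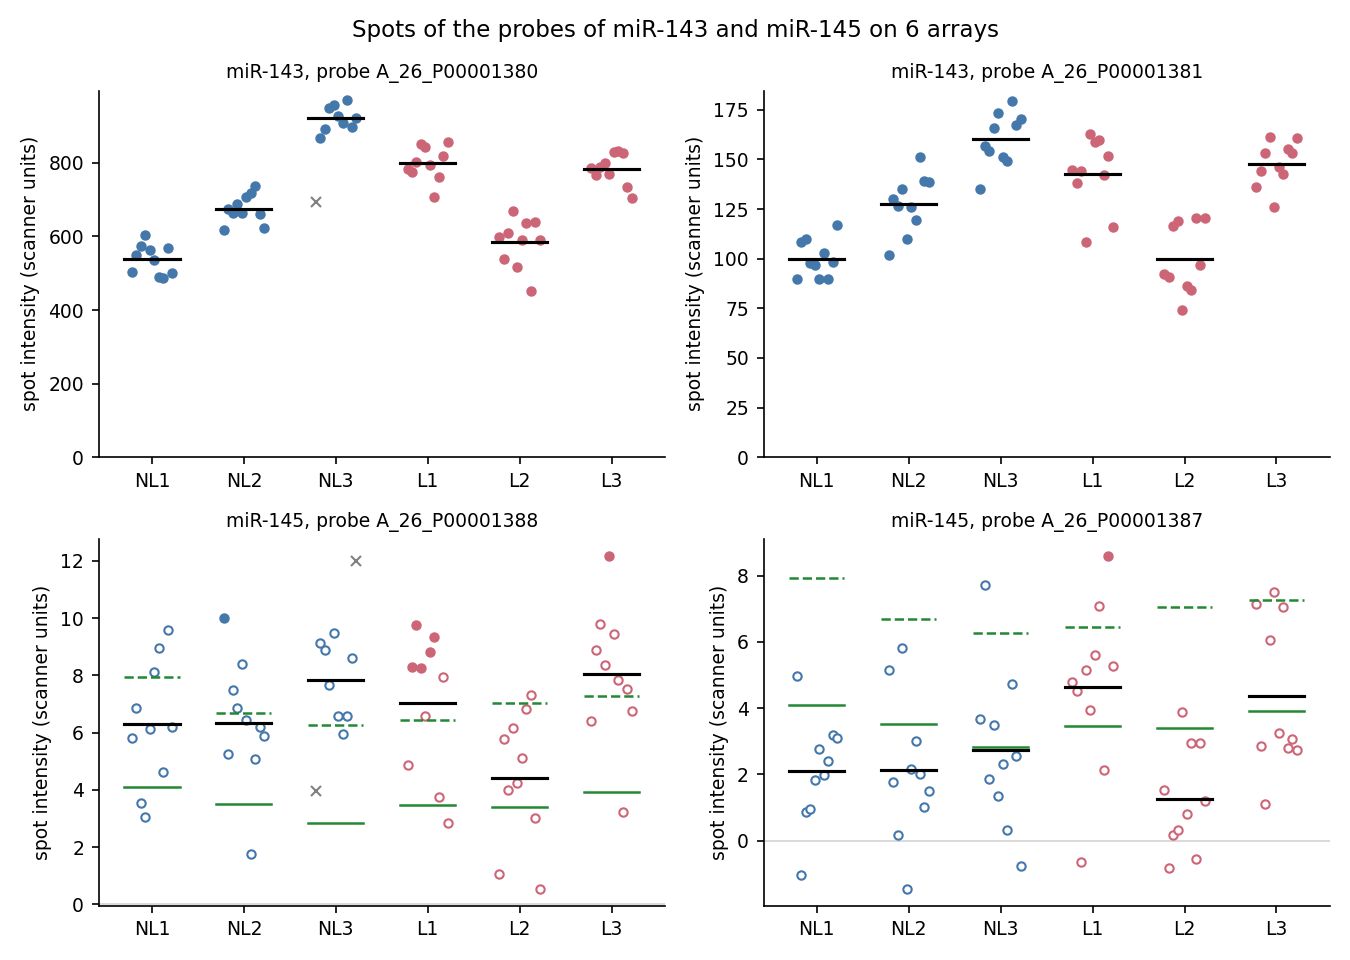
Intensity of each spot, in scanner units after background subtraction, for the 2 probes of miR-143 (top, axes from 0) and the 2 probes of miR-145 (bottom) on the non-loading arrays (NL1 to NL3, blue) and the loading arrays (L1 to L3, red). Filled points are spots well above background, open points are not, crosses are outlier spots left out, black lines are probe means, and green lines in the lower panels are the mean (solid) and the 95th percentile (dashed) of the array's negative-control spots. Every miR-143 spot that was kept is filled, against 8 of the 120 miR-145 spots.

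To compare arrays, signals were divided by a 75th percentile, taken on each array from 173 probes that every array detected, and the probes of a miRNA were then added up. That percentile lay between 262.6 and 362.2 intensity units. The scaled signal of miR-143 was 232%, 264% and 299% of the percentile in non-loading replicates 1, 2 and 3. Under loading it was 295%, 261% and 287% in replicates 1, 2 and 3. Both the lowest and the highest of the 6 arrays were non-loading ones, and the 3 loading arrays lay between them, so the groups overlapped, as they did for all but 15.5% of the tested miRNAs. From the lowest to the highest, the order was non-loading replicate 1, loading replicate 2, non-loading replicate 2, loading replicates 3 and 1, and non-loading replicate 3.

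On the log2 scale the signal of miR-143 was 1.40 ± 0.18 (SD, n = 3) without loading and 1.49 ± 0.09 (SD, n = 3) with it. The log2 change was 0.09 with a standard error of 0.12 (adjusted p = 0.738, limma with Benjamini-Hochberg adjustment over 148 tested miRNAs). It turned to -0.064 when arrays were scaled to the 75th percentile of all probes. With the scanner software's total signal per miRNA in place of the summed probes, it was -0.012. The 95% interval of the change of 0.09 ran from -0.19 to 0.38, which is a loading signal of 0.874 to 1.30 times the non-loading one, around an estimate of 1.06. An exact permutation test over the arrays gave a two-sided p of 0.7, where 3 arrays against 3 cannot go below 0.1. Among all 148 tested miRNAs, 0% had an adjusted p under 0.05 in limma, with 14 (9.46%) at an unadjusted p under 0.05, and the median change was 0.06. By the size of the change miR-143 ranked 91 of 148, and by p it ranked 94. Its standard error was close to the median of 0.12 over the miRNAs tested.

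**Figure D2:**
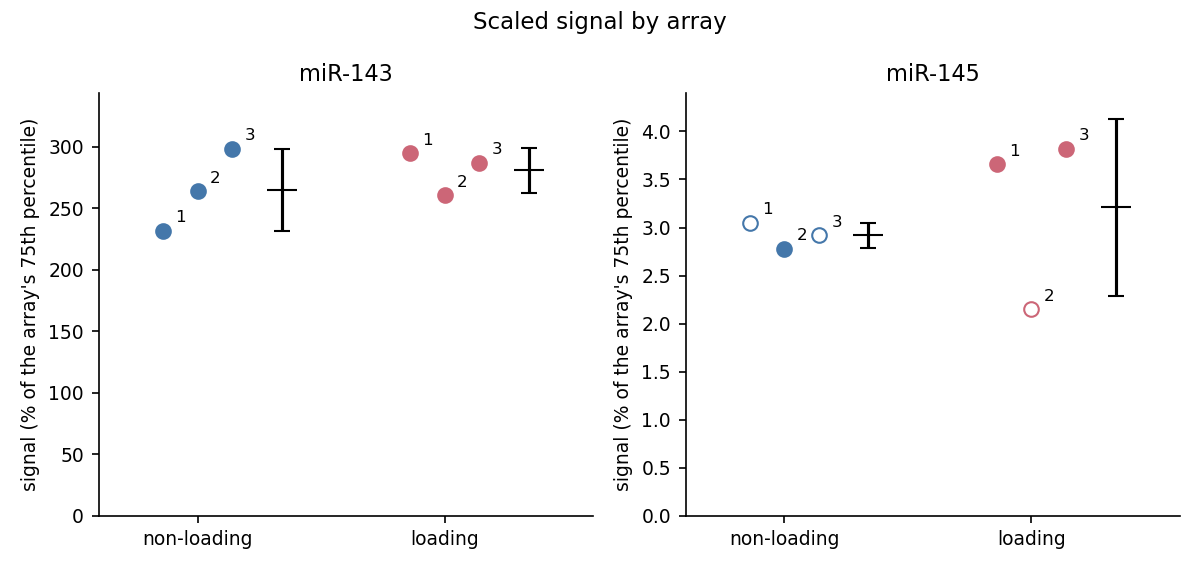
Scaled signal of miR-143 (left) and miR-145 (right) by array, in percent of the array's 75th percentile, with replicate numbers beside the points and the mean ± SD of the 3 arrays of a group as bars. Filled points are arrays on which the scanner software detected the miRNA. The miR-143 groups overlap, at 232% to 299% and 261% to 295%, and the miR-145 points lie between 2.15% and 3.82%.

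Both probes of miR-143 gave the same picture. The brighter probe, A_26_P00001380, gave 224% ± 29.5 (SD, n = 3) of the percentile without loading and 238% ± 14.2 (SD, n = 3) with it, a log2 change of 0.09 (exact permutation test, two-sided p = 0.6). The dimmer probe, A_26_P00001381, gave 40.9% ± 4.07 (SD, n = 3) and 42.8% ± 4.09 (SD, n = 3), a log2 change of 0.07 (exact permutation test, two-sided p = 0.5). Over the 6 arrays the log2 ratio of the probes had an SD of 0.06, against 0.14 for the scaled signal of miR-143, so most of the variation between arrays was shared by the probes. Before scaling, the array means of the brighter probe ran from 538 to 921 intensity units and those of the dimmer one from 100.1 to 160.3. The spots of a probe on 1 array varied with a coefficient of variation of 3.70% to 11.1% for the brighter probe and 7.56% to 17.4% for the dimmer one.

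The level of miR-143 moved with the brightness of the array. Non-loading replicate 1 and loading replicate 2, which lie in column 1 of the slide, had the lowest percentiles, at 275.1 and 262.6 units and also the lowest scaled miR-143 signals. Non-loading replicate 3 had the highest of both, with a percentile of 362.2 units. Within column 1 the loading array was above the non-loading array by 0.17 on the log2 scale, and within column 2 by 0.12, each from 1 array a group. Within row 1, loading replicate 1 was above the mean of the 3 non-loading arrays by 0.16. Row 1 held every non-loading array and row 2 only loading arrays, while columns 3 and 4 held 1 array each. Group and slide position were thus partly mixed. The part of array brightness and slide position in these values was not tested. Non-loading replicate 1 decided the sign, since without it the change was -0.0018 (adjusted p = 0.999 in limma), and without non-loading replicate 3 it was 0.18 (adjusted p = 0.657 in limma).

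**Figure D3:**
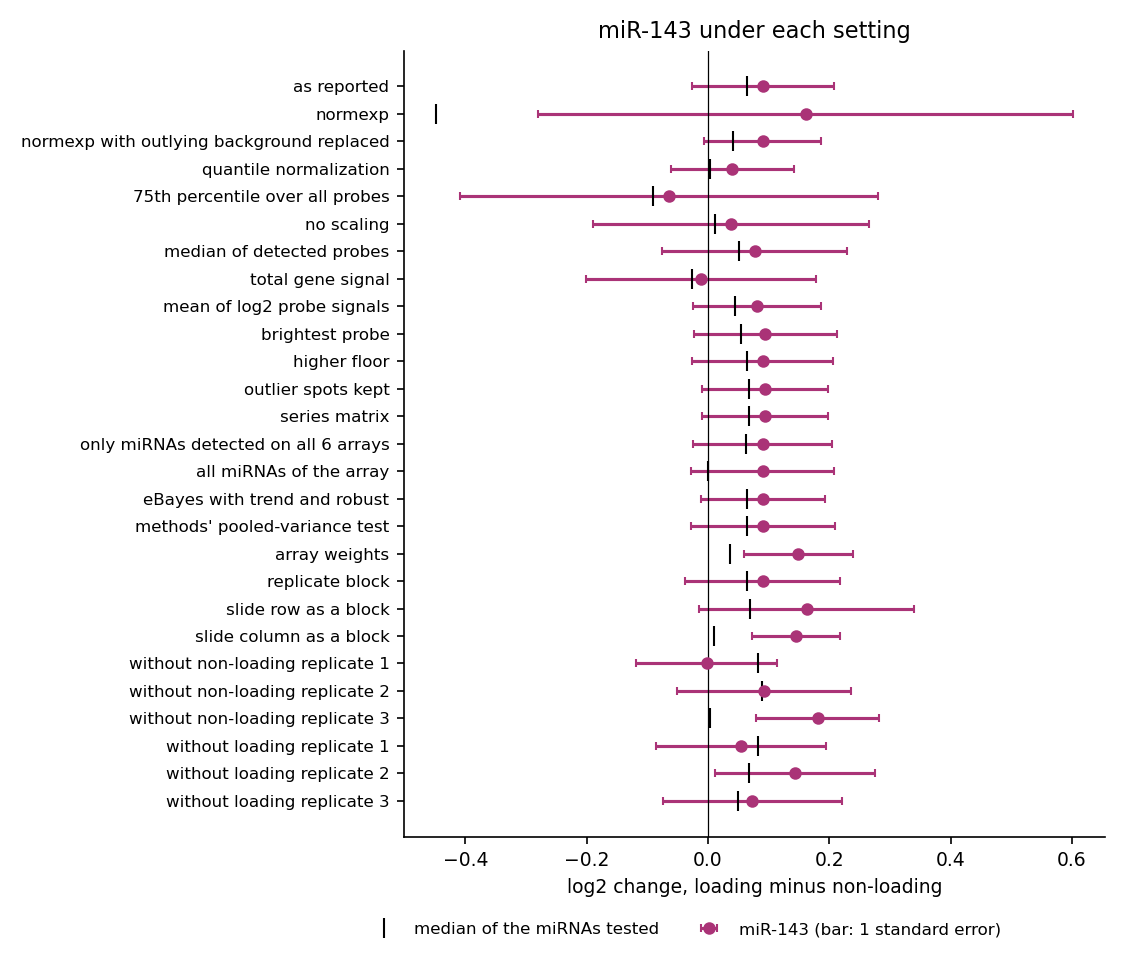
Log2 change of miR-143, loading minus non-loading, as reported and under each alternative setting or with 1 array left out (points, with 1 standard error as bars), beside the median change of the miRNAs tested (black ticks). The estimates run from -0.064 to 0.18, and no setting gave an adjusted p under 0.495.

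miR-145 did not pass the detection filter (detection on each of the 3 arrays of 1 group or both), so the limma test across miRNAs did not include it. Its scaled signal was 3.05%, 2.78% and 2.92% of the percentile in non-loading replicates 1, 2 and 3. Under loading it was 3.66%, 2.15% and 3.82% in replicates 1, 2 and 3. The loading arrays lay on both sides of the non-loading ones, with the lowest and the highest value of the 6. On the log2 scale the group means were -5.10 ± 0.07 (SD, n = 3) and -5.01 ± 0.46 (SD, n = 3), a difference of 0.09 (exact permutation test, two-sided p = 0.9). With all 677 miRNAs of the array in the limma fit, the standard error of that difference was 0.27 and the adjusted p was 0.801. The arrays on which miR-145 was detected, non-loading replicate 2 and loading replicates 1 and 3, were also those with the most miRNAs detected, at 176, 186 and 178 against 140 to 153 on the other arrays.

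The negative-control spots, which carry sequences with no miRNA target, show how near to background miR-145 was. Their mean was between 2.84 and 4.09 intensity units, with an SD of 1.80 to 2.28 units. The brighter miR-145 probe, A_26_P00001388, had 6.29, 6.33 and 7.85 units on the non-loading arrays and 7.04, 4.40 and 8.04 units on the loading arrays. It was above the control mean on 6 of 6 arrays, by 0.998 to 5.01 units, and above the 95th percentile of the control spots on 3 of 6. That percentile is of single control spots, which vary more than a mean of spots, so it is a strict mark for a probe mean. The dimmer probe, A_26_P00001387, gave 1.25 to 4.65 units and was above the control mean on 2 of 6 arrays, which were loading replicates 1 and 3. The probes differed in the sign of the change, with -0.06 on the log2 scale, without a floor, for the brighter and 0.40 for the dimmer one (exact permutation tests, two-sided p = 0.9 and p = 0.4). Of the 8 spots well above background, 7 were on loading arrays, and 6 of these 7 were on loading replicate 1. The cutoff of this flag differed between arrays, so the count does not rank the groups. For the brighter probe, a spot of 8.27 units on loading replicate 1 had the flag. A spot of 9.58 units on non-loading replicate 1 did not. A signal this close to the controls fixes neither a level nor a change of miR-145.

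The ratio of both signals within an array is free of the array's scale. Its denominator was near background, so it is given as a description and cannot show whether the miRNAs moved by equal or unequal amounts. Relative to its mean over the arrays, the log2 ratio of miR-143 to miR-145 was -0.25, 0.07 and 0.18 in non-loading replicates 1, 2 and 3. It was -0.17, 0.42 and -0.26 in loading replicates 1, 2 and 3. The groups overlapped, the difference of their means was -0.0036, and the SD over the arrays was 0.27. On the log2 scale the SD under loading was 0.46 for miR-145 and 0.09 for miR-143, and in non-loading cells it was 0.07 and 0.18.

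Of 7 other pairs of neighbouring miRNA genes, 6 were pairs in which both members passed the filter. In these 6 the SD over the arrays of the log2 ratio ran from 0.10 for miR-221 with miR-222 to 0.46 for miR-132 with miR-212. It was 0.45 for miR-17-5p with miR-20a. Both miR-212 and miR-17-5p were dim, with non-loading means of -4.07 and -5.13 on the log2 scale, beside -5.10 for miR-145. The upper end of the range thus came from pairs with a dim member. miR-195 with miR-497 had an SD of 0.11, and changes of -0.10 and -0.11. The remaining pair, miR-322 with miR-503, was like miR-143 with miR-145 in its detection, with 6 of 6 arrays for miR-322 and 3 of 6 for miR-503. So an uneven detection within a pair was not limited to the miR-143 locus. The log2 ratio of miR-322 to miR-503 had an SD of 0.135, against 0.27 for miR-143 with miR-145, so the likeness is in detection only.

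By the same measure the miRNAs whose pattern over the 6 arrays was most like that of miR-143 were miR-23a, miR-125b-5p and miR-199a-5p. The SD of their log2 ratio to miR-143 was 0.05, 0.08 and 0.09, where the median over 147 miRNAs was 0.24. Their log2 changes were 0.11, 0.11 and 0.09, beside 0.09 for miR-143, and their adjusted p in limma was 0.724, 0.724 and 0.830. As they were picked by a small SD of the ratio over arrays of both groups, changes near that of miR-143 followed from the choice. No such likeness is given for miR-145, whose signal was near background.

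The cells were checked against miRNAs known as markers. The 6 miRNAs of mesenchymal cells and fibroblasts include miR-143 and miR-145 themselves, which are no independent check of the cells. Of the 6, miR-199a-5p, miR-199a-3p, miR-214, miR-21 and miR-143 were detected on all arrays, and miR-145 was the exception. The summed signal of the 6 was 10789% to 11756% of the percentile in non-loading cells and 11641% to 12031% under loading. The muscle miRNAs miR-1, miR-133a, miR-133b and miR-206, which rise with the skeletal muscle programme, were detected on 0 of 6 arrays, with a summed signal of 0% to 0.995% of the percentile in non-loading and 0.426% to 0.940% in loading cells. The epithelial (4 miRNAs), liver (1) and neuronal (2) markers were also detected on no array. The endothelial marker miR-126 was detected on all arrays, at 2.77% to 4.91% in non-loading and 3.91% to 5.36% in loading cells. These values are low and overlap the 2.15% to 3.82% of miR-145, and the miR-126 probes were not compared with the control spots. Of the 4 blood markers, miR-142-3p, miR-142-5p and miR-451 were detected on no array and miR-223 was detected on 2 of 3 non-loading and 3 of 3 loading arrays, with a summed signal of 4.48% to 8.92% and 7.72% to 9.47%. The part of the endothelial and blood markers in the values above was not tested.

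Of 7 muscle miRNAs linked to the transcription factors SRF or MEF2, 6 were on the array under the names sought. These 6, the 4 skeletal muscle markers above with miR-208 and miR-499, were detected on no array. Their summed signal was 0% to 0.995% of the percentile in non-loading cells and 0.426% to 1.07% under loading. miR-208 and miR-499 lie within myosin genes and are known from heart and slow muscle.

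Among 9 miRNAs known to act on the state of smooth muscle cells, 8 passed the filter, and 0 had an adjusted p under 0.05 in limma. For 4 of the 8 the loading arrays all lay above the non-loading arrays, and for 0 of the 8 below, where 12.8% and 2.70% of all 148 tested miRNAs did so. The list was chosen with earlier results of these data known, those for miR-221 and miR-222 among them, so this count is a description. Its median change was 0.17, beside 0.06 over all tested miRNAs.

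The 4 that did not overlap were miR-221 and miR-222, a pair known to favour proliferation of vascular smooth muscle cells, miR-31 and miR-24. Their log2 changes were 0.45 for miR-221, 0.30 for miR-222, 0.20 for miR-31 and 0.20 for miR-24, with adjusted p in limma of 0.0551, 0.451, 0.486 and 0.486. Under 9 of 20 alternative settings miR-221 passed an adjusted p of 0.05. The 95% interval of miR-221, from 0.28 to 0.63, overlapped that of miR-143, and the difference between them was not tested. miR-21 had a change of 0.15 (standard error 0.09) and miR-22, known to favour smooth muscle differentiation, of 0.06 (standard error 0.08). miR-26a and miR-146a had negative values, at -0.17 (standard error 0.14) and -0.09 (standard error 0.18). Adjusted p in limma for these 4 lay between 0.709 and 0.869. The last of the 9, miR-204, was detected on 2 non-loading arrays and 1 loading array and was not tested.

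**Figure D4:**
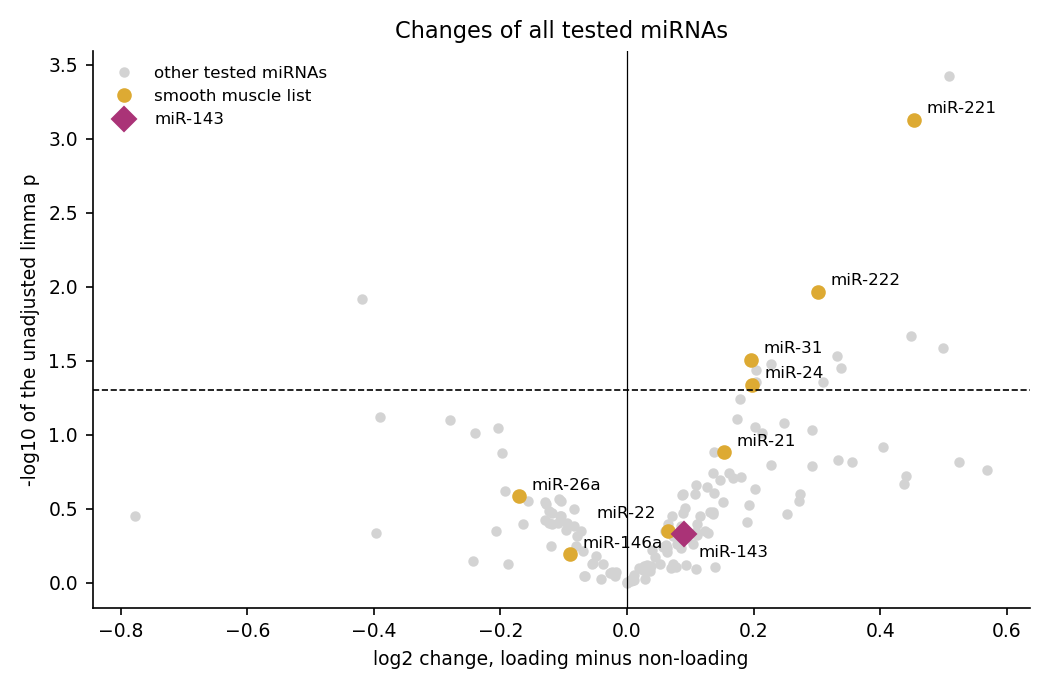
Log2 change, loading minus non-loading, of the 148 tested miRNAs against -log10 of the unadjusted limma p. miR-143 (diamond) lies among the bulk of the miRNAs near 0, at 0.09. Of the 8 smooth muscle miRNAs (yellow), 4 lie above the dashed line at an unadjusted p of 0.05, as do 9.46% of all tested miRNAs. The smooth muscle list was chosen with earlier results of these data known, those for miR-221 and miR-222 among them. None of the 148 passed 0.05 after adjustment.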

How the data were processed

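Per the file headers, the authors' arrays were extracted with Agilent Feature Extraction 10.7.3.1, with array annotation of build rn4. The deposited intensity of a spot is background-subtracted and not scaled between arrays, and the deposited matrix holds the same intensity (largest difference 0). The normalization the methods mention is not given in the sources used here. Flags (scores of 0 or 1) mark outlier, saturated (0 spots) and well-above-background spots, and detection of a miRNA.

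From these values, control spots and outlier spots (2.93% to 4.17% of an array) were left out, spots averaged per probe, divided by each array's 75th percentile (173 probes with at least 50% of spots well above background on every array), summed per miRNA, floored at 1.87% of the percentile and put on the log2 scale. Tested were 148 miRNAs, those that the software detected on each array of 1 group or both, with limma 3.58.1 (R 4.3.3, lmFit and eBayes, Benjamini-Hochberg), a step tested on simulated data. Single values were compared by exact permutation. The number of arrays limits the precision. The alternatives concerned background, scaling, probe summary, floor, filters, outlier spots, test, weights, blocks and each array left out. Normexp used the median signals. The methods' test was Student-Newman-Keuls, which with 2 groups is a pooled-variance comparison.

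Named were the members, their starred arms, the listed muscle, smooth muscle and marker miRNAs, the neighbouring pairs, and the 3 miRNAs with the smallest SD of the log2 ratio to miR-143. The same likeness to miR-145, near background, was left out. The pair miR-322 and miR-503, of which not both were tested, and untested markers were named after their values were seen. Members, lists and alternatives were chosen with earlier results of these data known.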

Additional observations from a re-analysis of the deposited data

How the results depend on the processing

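For miR-143, 18 of 20 alternatives kept the direction, with changes from -0.064 to 0.16. The adjusted p, in limma or in the methods' test, lay between 0.495 and 0.999, arrays left out included. The sign turned with the scanner software's total signal per miRNA (-0.012) and with scaling to a 75th percentile of all probes (-0.064). There the median of the tested miRNAs was also negative, at -0.026 and -0.090. Leaving out arrays gave changes from -0.0018 to 0.18. With normexp miR-143 was at 0.16, beside a median of -0.45 over the tested miRNAs.

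For miR-145 the difference turned to -0.58 with normexp, -0.060 with the percentile of all probes, -0.050 after quantile normalization, -0.047 with the brightest probe and -0.023 with the slide column as a block. Leaving out 1 array gave -0.055 (without loading replicate 3) to 0.36 (without loading replicate 2), and leaving out loading replicate 1 gave -0.024. The change of the ratio of miR-143 to miR-145 turned to 0.74 with normexp, 0.046 with normexp and outlying background replaced, 0.090 with quantile normalization, 0.14 with the brightest probe, 0.0077 with outlier spots kept or with the series matrix and 0.17 with the column as a block. Leaving out 1 array gave -0.22 to 0.13, negative without non-loading replicate 1 or loading replicate 2 and positive without any of the other 4 arrays. With the mean of log2 probe signals miR-145 was at the floor on every array and gave no value, and the alternatives on tests, on weights and on miRNAs detected on all 6 arrays do not include it. For these settings the cause was not tested. Signal over background limits miR-145.

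The number of miRNAs with an adjusted p under 0.05 was 0 in limma, also with each array left out. It was 2 under 9 of 20 alternatives, all in limma but the methods' test, and in each of them miR-221 and miR-132. These were array weights, the methods' test, robust eBayes with a trend, the filter on detection on all 6 arrays, the series matrix, outlier spots kept, the brightest probe, the mean of log2 probe signals and quantile normalization.

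No source used here says whether equal replicate numbers pair the samples. The correlation across miRNAs of their deviations from the group means was -0.69, -0.47 and 0.11 for numbers 1, 2 and 3. With 3 arrays a group these values cannot settle it. With the replicate block the change of miR-143 was 0.09 (adjusted p = 0.856 in limma), that of miR-145 was 0.09, that of the ratio was -0.0036, and 0 miRNAs passed.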
